A study of Mus musculus with 30 samples.

Results

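The immune checkpoint and costimulation genes described here are 10 mouse genes, Cd274, Pdcd1lg2, Cd80, Cd86, Cd276, Tnfsf9, Havcr2, Lag3, Pdcd1 and Ctla4, out of 19938 genes measured. They were taken by symbol from the array's probe-to-gene annotation, and where a gene had more than 1 probe set naming it alone, the probe set with the highest mean over all 30 arrays was used. All 10 were measured. Cd80 had 2 such probe sets, whose log2 signals correlated over the 30 arrays with r = 0.92, and the other 9 had 1 each.

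Immune checkpoints are receptor and ligand pairs that restrain T cells and other immune cells, and costimulation is the second signal that a T cell needs beside its antigen. The ligands of the B7 family (Cd274, Pdcd1lg2, Cd80, Cd86 and Cd276) and the TNF family ligand Tnfsf9 are carried mainly by antigen-presenting cells, macrophages and, for some, tumor cells, while the receptors Pdcd1, Ctla4, Lag3 and Havcr2 are best known from activated T cells. In glioblastoma, macrophages and microglia are the most abundant immune cells and T cells are few.

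The arrays profiled RNA from mouse glioblastomas that had been started by injecting constructs carrying Cre under the promoter of GFAP (an astrocyte gene), SYN1 (a neuron gene) or NES (a gene of neural progenitors), and from normal brain. The 7 groups were GFAP tumors of the cortex (4 arrays), hippocampus (7) and subventricular zone (SVZ, 3), SYN1 tumors of the cortex (4), NES tumors of the hippocampus (4), normal cortex (4) and normal hippocampus (4). The mouse strain, its alleles, age and sex, and the rest of the injected construct are not given in the sources used here, and it is not stated either whether each array had an animal of its own. The p-values therefore speak to the scatter among these arrays, part of which may be technical. The labels name no normal SVZ, so SVZ tumors were set against the mean of both normal groups, and region and tumor cannot be told apart there. Values are log2 signal as deposited, which includes background, so dim genes read as a floor and not as absence, and levels are compared between groups for 1 gene and never between genes.

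The first principal component, 56.6% of the variance over all genes, separated normal from tumor arrays, and the second, 14.2%, set 4 tumor arrays apart: GFAP cortex tumor 1 and GFAP hippocampus tumors 5 to 7. In that order their interquartile ranges over genes were 1.88, 2.18, 2.40 and 2.28, the narrowest of all arrays (2.45 to 3.03 in the others). Their medians over genes, 7.42 to 7.52, were the lowest. The part of this narrower signal range in their values below was not tested. A member's log2 difference printed below is also given without these 4 arrays where that began or ended a call or moved the value by over 1.5 times. Other settings named below are fits of only the arrays compared, and fits with array weights, in which limma gives less weight to arrays that scatter more. Of 12 monocyte and macrophage markers, 9 to 11 were higher in each tumor group than in normal brain, and the list's mean log2 difference from the 8 normal arrays ran from 1.14 to 2.81 over the 22 tumor arrays against -0.24 to 0.16 in normal arrays. Of 8 neuron markers, 6 were lower in GFAP and SYN1 tumors and none passed in NES tumors. The part of changing cell numbers in the results below was not tested, and in bulk tissue more cells of a type cannot be told apart from more RNA per cell.

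**Figure D1:**
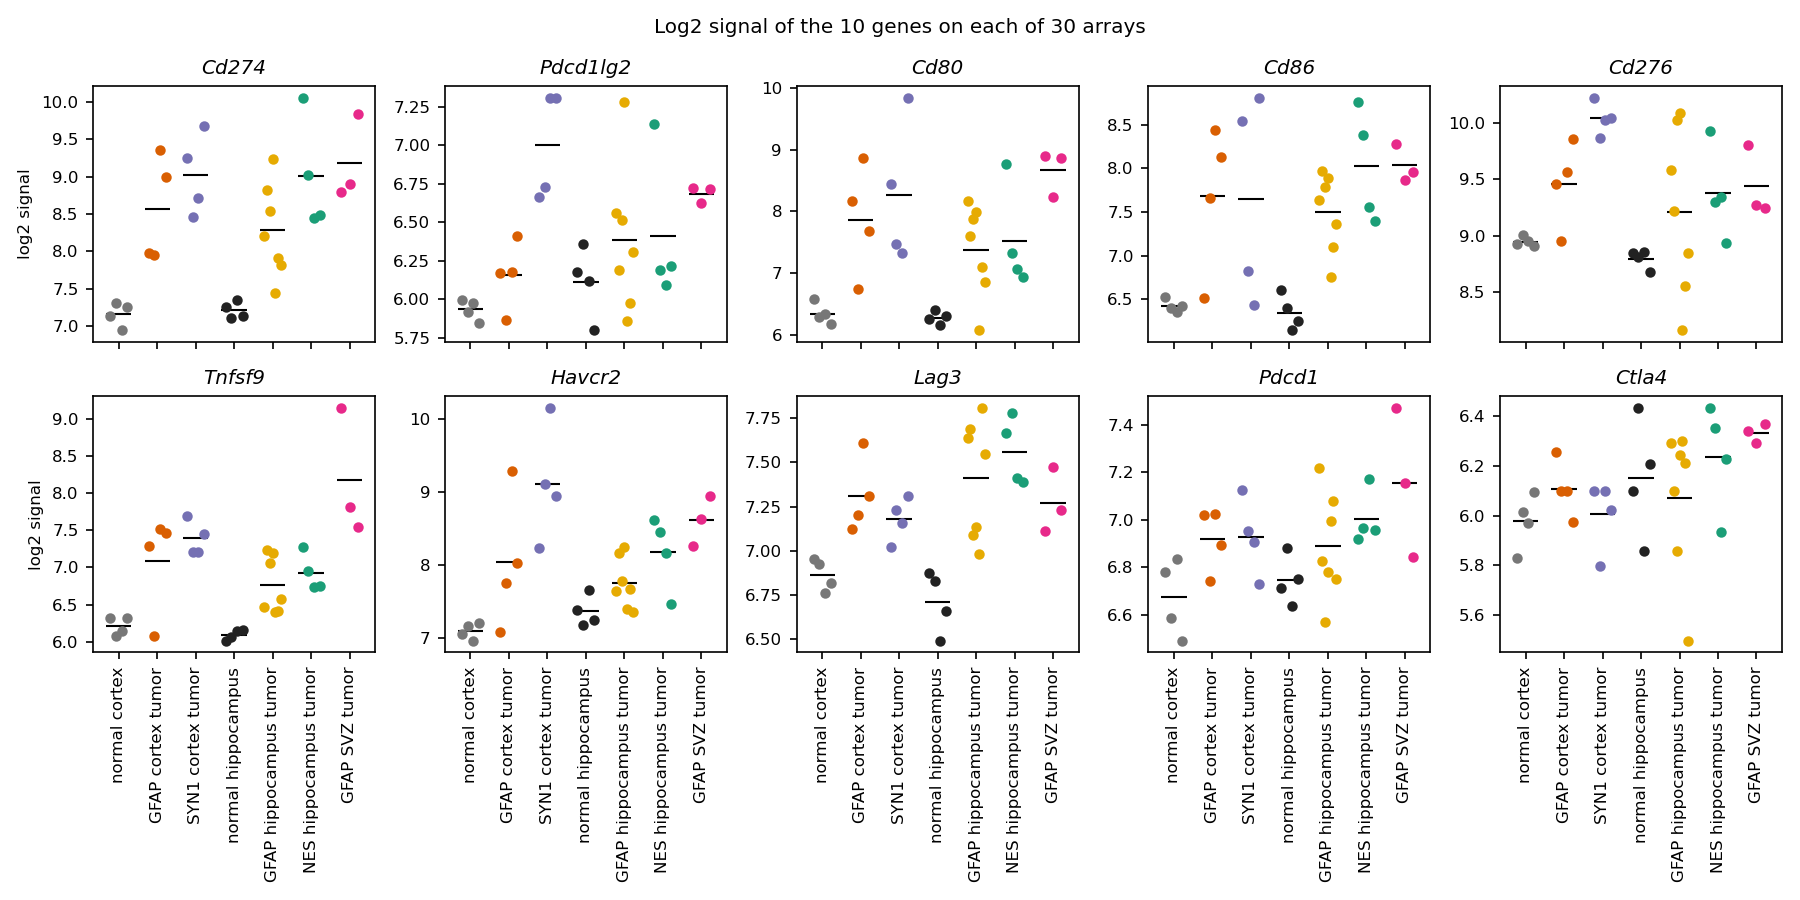
Log2 signal (vertical axis) of each of the 10 genes on every array, by group (horizontal axis). Each point is 1 array and each bar the group's mean. All 22 tumor arrays lie above all 8 normal arrays for Cd274 and for Lag3, and none does for Ctla4.

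Against normal brain, every member that passed the test was higher in tumors and none was lower. A gene passed where limma's moderated test gave a Benjamini-Hochberg adjusted p under 0.05 over all 19938 genes. In GFAP cortex tumors 6 of the 10 members rose, where 9% of all genes did. In GFAP hippocampus tumors 5 rose, against 16.1% of all genes, in SYN1 cortex tumors 7 against 18.2%, in NES hippocampus tumors 3 against 5.69%, and in SVZ tumors 8 against 16.2%. The members' median log2 difference was 0.69, 0.54, 1.13, 0.82 and 1.02 in that order, beside medians over all genes of -0.10, -0.08, -0.04, -0.04 and -0.00. The number of members whose tumor arrays lay wholly above the normal arrays was 3, 4, 7, 7 and 8, where 13.3%, 8.43%, 23.1%, 13.6% and 19.1% of all genes did so. These comparisons share normal arrays (4 of cortex or 4 of hippocampus, and SVZ uses both), so they are not independent of each other.

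**Figure D2:**
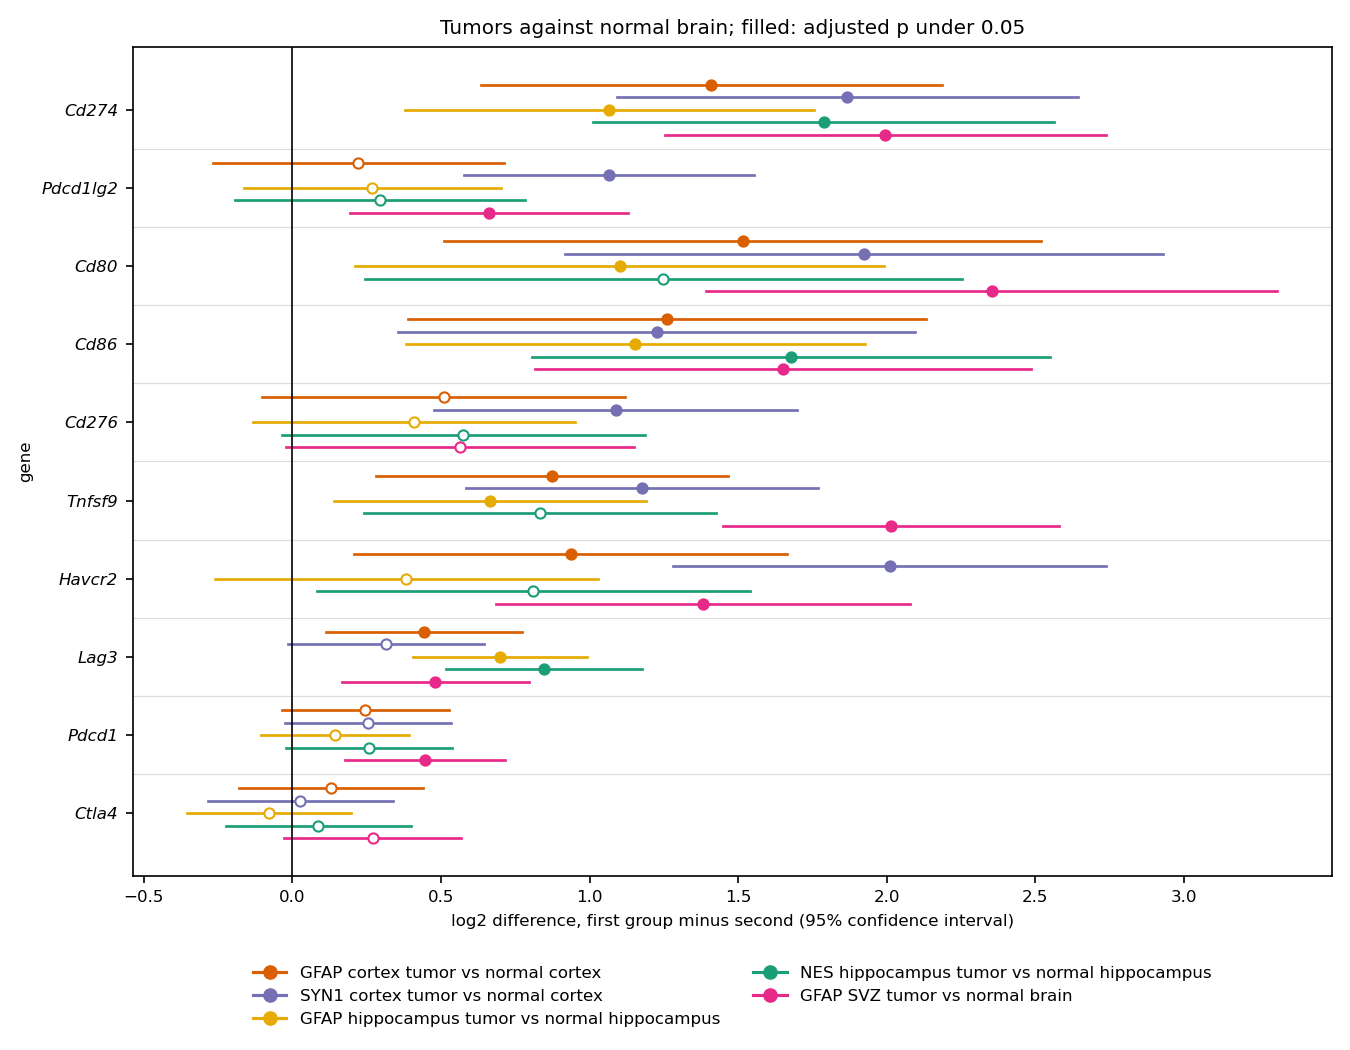
Log2 difference (horizontal axis) of each gene (vertical axis) between a tumor group and normal brain, with its 95% confidence interval from limma. Filled points have an adjusted p under 0.05. Cd274 and Cd86 are filled in all 5 comparisons and Ctla4 in none.

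Cd274 encodes PD-L1, the ligand that engages PD-1 on T cells. It rose in all 5 comparisons, and in each its tumor arrays lay above the normal arrays they were compared with. In normal cortex its log2 signal was 7.13, 7.31, 6.94 and 7.26, and in normal hippocampus 7.26, 7.11, 7.36 and 7.14. GFAP cortex tumors read 7.98, 7.95, 9.36 and 8.99, SYN1 cortex tumors 9.25, 8.46, 8.71 and 9.68, NES hippocampus tumors 10.06, 9.03, 8.45 and 8.49, and SVZ tumors 8.80, 8.91 and 9.84. The 7 GFAP hippocampus tumors ran from 7.44 through a median of 8.21 to 9.23, and the 3 that stand apart were the lowest of them at 7.44, 7.91 and 7.82. The lowest tumor array of all, 7.44, was thus still above the highest normal array, 7.36.

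The log2 difference of Cd274 was 1.41 ± 0.38 (SE) in GFAP cortex tumors (limma, adjusted p = 0.00649, 2.66-fold) and 1.87 ± 0.38 in SYN1 cortex tumors (adjusted p = 0.000265, 3.65-fold). In the hippocampus it was 1.07 ± 0.33 in GFAP tumors (adjusted p = 0.0124) and 1.79 ± 0.38 in NES tumors (adjusted p = 0.00311), and in SVZ tumors it was 1.995 ± 0.36 (adjusted p = 9.15e-05). All 5 calls held under each of the 40 alternatives run for them, with adjusted p up to 0.035. Without the 4 arrays that stand apart the GFAP hippocampus difference was 1.49. By group mean the order was SVZ, SYN1 cortex, NES hippocampus, GFAP cortex and GFAP hippocampus tumors, then normal hippocampus and normal cortex, and each neighbouring pair overlapped apart from GFAP hippocampus tumors and normal hippocampus.

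Pdcd1lg2, which encodes PD-L2, the second ligand of PD-1, lies next to Cd274 on chromosome 19 but passed in 2 comparisons only. SYN1 cortex tumors read 6.66, 6.73, 7.31 and 7.31 against 5.999, 5.92, 5.98 and 5.85 in normal cortex, a log2 difference of 1.07 ± 0.24 (limma, adjusted p = 0.00073) between groups that did not overlap. SVZ tumors read 6.72, 6.62 and 6.72, 0.66 ± 0.23 above normal brain (adjusted p = 0.0226), and every SVZ array was above every normal array. That call was lost without any 1 of the 3 SVZ arrays (adjusted p = 0.0546 to 0.0737). In GFAP cortex tumors (6.17, 5.87, 6.18 and 6.41) the difference was 0.22, in GFAP hippocampus tumors 0.27 and in NES tumors 0.30, none of which passed (adjusted p = 0.548, 0.320 and 0.503). The GFAP hippocampus value was 0.52 without the 4 arrays that stand apart (adjusted p = 0.0515), and it passed with array weights (0.51, adjusted p = 0.0171). NES tumor 1 read 7.14 and the other 3 NES tumors 6.19, 6.09 and 6.22, within the range of normal hippocampus (5.80 to 6.36).

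The 250 bases before the start of Cd274 and of Pdcd1lg2 are shown because these neighbours passed in 5 and 2 comparisons with normal brain. No test compared the genes with each other, and over the tumor arrays they were correlated (r = 0.66). A link between these sequences and the calls was not tested. They are RefSeq sequences of GRCm38.p6, at chr19:29367188-29367437 and chr19:29410669-29410918, both on the plus strand. Capitals mark the half-site of interferon regulatory factors, GAAAC, which reads GTTTC on the other strand.
Cd274: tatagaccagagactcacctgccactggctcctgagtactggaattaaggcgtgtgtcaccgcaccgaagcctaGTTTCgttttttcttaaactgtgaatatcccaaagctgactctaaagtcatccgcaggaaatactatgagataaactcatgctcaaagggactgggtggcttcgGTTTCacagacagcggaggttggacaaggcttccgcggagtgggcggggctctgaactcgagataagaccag
Pdcd1lg2: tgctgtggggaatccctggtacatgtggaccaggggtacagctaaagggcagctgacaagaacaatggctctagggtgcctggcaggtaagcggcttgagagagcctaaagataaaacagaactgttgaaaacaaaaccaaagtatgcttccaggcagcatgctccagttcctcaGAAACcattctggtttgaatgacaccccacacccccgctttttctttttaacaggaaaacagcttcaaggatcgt
Of the 10 members, 7 had a RefSeq promoter in the table used, and Lag3, Cd86 and Tnfsf9 had none. None of the 7 held on either strand the interferon-response element, searched as 2 copies of GAAA with 2 bases between them (in 2.98% of 32851 promoters), the GAS motif TTCNNNGAA (7.02%) or the NF-kB motif, searched as GGG, then 2 bases, then TTTCC (1.41%), in those 250 bases. The half-site was searched last, after these 3 motifs had matched none of the members, and it lies inside some matches of the interferon-response element. It was in 4 of the 7 (Cd274, Pdcd1lg2, Ctla4 and Pdcd1), beside 39.7% of all promoters. Matches are a description of letters, not sites of binding.

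Cd80 and Cd86 encode the B7 ligands that give costimulation through CD28 and are bound more tightly by CTLA-4. Cd86 rose in all 5 comparisons and Cd80 in 4. Cd86 read 6.53, 6.40, 6.36 and 6.42 in normal cortex and 6.60, 6.39, 6.14 and 6.25 in normal hippocampus. SVZ tumors read 8.28, 7.87 and 7.96, NES tumors 8.76, 8.38, 7.56 and 7.39, and the 7 GFAP hippocampus tumors 6.75 to 7.98 with a median of 7.64. These 3 groups lay wholly above their normal arrays.

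The cortex tumors did not. GFAP cortex tumors read 6.51, 7.66, 8.44 and 8.14, the low value being tumor 1, which stands apart. SYN1 cortex tumors fell into a high pair, 8.54 and 8.81, and a low pair, 6.82 and 6.43, of which the last lay among the normal arrays. The log2 difference of Cd86 was 1.26 ± 0.42 in GFAP cortex (limma, adjusted p = 0.0267), 1.15 ± 0.38 in GFAP hippocampus (0.0157), 1.23 ± 0.42 in SYN1 cortex (0.0224), 1.68 ± 0.42 in NES hippocampus (0.0123) and 1.65 ± 0.41 in SVZ tumors (0.00187).

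Some Cd86 calls depended on single arrays or on the arrays fitted. The SYN1 call was lost without tumor 1 (0.93, adjusted p = 0.108) and without tumor 4 (0.84, adjusted p = 0.134), the high pair, and also when only the compared arrays were fitted (adjusted p = 0.0583). The NES call was lost without NES tumor 1 (1.43, adjusted p = 0.0778). The GFAP cortex call was lost without GFAP cortex tumor 3 (1.01, adjusted p = 0.106), tumor 4 (1.11, adjusted p = 0.0812) or normal cortex array 2, 3 or 4 (1.24 to 1.26, adjusted p = 0.0515 to 0.0565).

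Cd80 read 6.58, 6.29, 6.35 and 6.17 in normal cortex and 6.26, 6.40, 6.15 and 6.31 in normal hippocampus. SVZ tumors, at 8.89, 8.23 and 8.87, were 2.35 ± 0.47 higher (limma, adjusted p = 0.000243, 5.11-fold). In the fit of all arrays this was the largest difference of any member in any comparison with normal brain. Over the 40 alternatives it ran from 1.68 to 2.57 and passed in each. The SVZ difference of Tnfsf9 ran from 1.53 to 2.32, so that ranking is not fixed. SYN1 cortex tumors read 8.44, 7.48, 7.33 and 9.84 (1.92 ± 0.49, adjusted p = 0.0024) and GFAP cortex tumors 8.16, 6.74, 8.86 and 7.68 (1.51 ± 0.49, adjusted p = 0.0211), both wholly above normal cortex. Over the alternatives these differences went as low as 1.40 in SYN1 and 1.07 in GFAP cortex tumors.

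In GFAP hippocampus tumors Cd80 ran from 6.08 through 7.60 to 8.17, overlapping normal hippocampus through tumor 5 (1.10 ± 0.43, adjusted p = 0.0431). That call was lost with the mean of both Cd80 probe sets (0.71, adjusted p = 0.115) and without any 1 of GFAP hippocampus tumors 1 to 4 or of the 4 normal hippocampus arrays (0.97 to 1.14, adjusted p = 0.0619 to 0.091), while without the 4 arrays that stand apart it was 1.63 (adjusted p = 0.00436). NES tumors read 8.77, 7.33, 7.06 and 6.94, all above normal hippocampus, and their difference of 1.25 ± 0.49 did not pass (adjusted p = 0.12), but did with only the compared arrays (adjusted p = 0.0405) or array weights (1.09, adjusted p = 0.00318). The GFAP cortex call was lost without tumor 1, tumor 3 or normal cortex array 4 (1.18 to 1.46, adjusted p = 0.0507 to 0.0946).

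Cd276 encodes B7-H3, a B7 family protein carried by many solid tumors. In the fit of all arrays it passed in SYN1 cortex tumors alone, where the arrays read 10.22, 9.87, 10.02 and 10.04 against 8.93, 9.003, 8.96 and 8.91 in normal cortex, a log2 difference of 1.09 ± 0.30 (limma, adjusted p = 0.00431, 2.13-fold). GFAP cortex tumors (9.46, 8.95, 9.56 and 9.86), NES tumors (9.92, 9.30, 9.34 and 8.94) and SVZ tumors (9.80, 9.27 and 9.25) had differences of 0.51 to 0.58 that did not pass (adjusted p = 0.128 to 0.261), although the last 2 groups lay above their normal arrays.

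GFAP hippocampus tumors of Cd276 split by the arrays that stand apart. Tumors 1 to 4 read 9.58, 9.22, 10.02 and 10.08, above all normal hippocampus arrays (8.68 to 8.86), and tumors 5 to 7 read 8.17, 8.55 and 8.85. Over all 7 the log2 difference was 0.41 ± 0.26 (limma, adjusted p = 0.22). Without the 4 arrays that stand apart it was 0.93 (adjusted p = 0.000576), and Cd276 then also passed in NES (0.58, adjusted p = 0.0482) and SVZ tumors (0.56, adjusted p = 0.0188). Leaving out GFAP hippocampus tumor 5 alone gave 0.58 (adjusted p = 0.045). In GFAP cortex tumors Cd276 passed after quantile normalization (0.76, adjusted p = 0.0198), with array weights (0.59, adjusted p = 0.00268) and with the replicate block (adjusted p = 0.0409). In SVZ tumors it also passed with centring, quantile normalization, only the compared arrays, array weights, the replicate block and GFAP hippocampus tumors 1 to 4 only (0.53 to 0.66, adjusted p = 0.000748 to 0.0411). With array weights it passed in all 5 comparisons.

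Tnfsf9 encodes the ligand of 4-1BB (CD137), a costimulatory receptor of T and NK cells. It rose in 4 comparisons, most in SVZ tumors, which read 9.14, 7.82 and 7.55 against 6.02 to 6.32 over the 8 normal arrays. That difference was 2.01 ± 0.28 (limma, adjusted p = 4.55e-06, 4.04-fold). SYN1 cortex tumors read 7.69, 7.20, 7.21 and 7.45, all above normal cortex (6.32, 6.08, 6.14 and 6.32), a difference of 1.18 ± 0.29 (adjusted p = 0.00171).

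GFAP cortex tumors read 7.29, 6.08, 7.52 and 7.46 for Tnfsf9, tumor 2 lying at the lowest normal cortex array (0.87 ± 0.29, limma adjusted p = 0.0239). GFAP hippocampus tumors ran from 6.40 through 6.58 to 7.23 and did not overlap normal hippocampus, 6.02 to 6.15 (0.67 ± 0.26, adjusted p = 0.038). NES tumors read 7.28, 6.95, 6.74 and 6.76, also clear of normal hippocampus, but their difference of 0.83 ± 0.29 did not pass (adjusted p = 0.0725). It passed without the 4 arrays that stand apart (adjusted p = 0.0446), and without GFAP cortex tumor 2 or SVZ tumor 1 (adjusted p = 0.0304 and 0.0305), arrays that enter that test only through the pooled spread. It also passed with only the compared arrays, array weights or the replicate block (adjusted p = 0.00374, 0.000933 and 0.0482). The GFAP cortex call was lost without GFAP cortex tumor 1, 3 or 4 or normal cortex array 2 or 3 (adjusted p = 0.0538 to 0.0872) and with only the compared arrays (adjusted p = 0.0613), and the GFAP hippocampus call without tumor 2, 3 or 4 or any 1 normal hippocampus array (adjusted p = 0.0645 to 0.0845).

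Among the receptors, Havcr2 encodes TIM-3, which is carried by exhausted T cells and also by macrophages, microglia and dendritic cells. It was highest in SYN1 cortex tumors, at 8.23, 9.10, 10.15 and 8.94 against 7.05, 7.16, 6.96 and 7.20 in normal cortex, a log2 difference of 2.01 ± 0.35 (limma, adjusted p = 6.13e-05, 4.03-fold). SVZ tumors read 8.26, 8.63 and 8.94, above all normal arrays (1.38 ± 0.34, adjusted p = 0.00185). In the SYN1 group the array with the highest Havcr2, tumor 3, had the lowest Cd86 of the 4.

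GFAP cortex tumors read 7.08, 7.75, 9.28 and 8.02 for Havcr2, overlapping normal cortex through tumor 1 (0.94 ± 0.35, limma adjusted p = 0.0492). Removing any 1 of 22 of the 30 arrays ended that call (adjusted p = 0.0503 to 0.275), most of all GFAP cortex tumor 3 (0.52), and so did quantile normalization (0.88, adjusted p = 0.0514) and fitting only the compared arrays (adjusted p = 0.115). Leaving out the 4 arrays that stand apart gave 1.26 (adjusted p = 0.00962). GFAP hippocampus tumors ran from 7.35 through 7.66 to 8.25 and NES tumors read 8.62, 8.45, 8.16 and 7.46, both overlapping normal hippocampus (7.37, 7.17, 7.66 and 7.25), and neither difference passed (0.38, adjusted p = 0.343, and 0.81, adjusted p = 0.172). Without the 4 arrays the GFAP hippocampus value was 0.59 (adjusted p = 0.132). The NES value passed with only the compared arrays (adjusted p = 0.0456) and with array weights (0.90, adjusted p = 0.00245).

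Lag3 encodes a receptor that binds MHC class II. Its log2 differences from normal brain were all under 1. Normal hippocampus read 6.87, 6.83, 6.49 and 6.66, NES tumors 7.66, 7.78, 7.41 and 7.39, and GFAP hippocampus tumors 6.98 through 7.55 to 7.81. These are log2 differences of 0.85 ± 0.16 (limma, adjusted p = 0.00117) and 0.70 ± 0.14 (adjusted p = 0.000357). Both tumor groups lay wholly above normal hippocampus.

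In the cortex, Lag3 read 6.95, 6.93, 6.76 and 6.82 in normal arrays, 7.12, 7.20, 7.61 and 7.31 in GFAP tumors and 7.02, 7.23, 7.16 and 7.31 in SYN1 tumors. Neither tumor group overlapped normal cortex, but only the GFAP difference passed (0.44 ± 0.16, limma adjusted p = 0.0387), and SYN1 tumors did not (0.31 ± 0.16, adjusted p = 0.13). The SYN1 difference passed with only the compared arrays (adjusted p = 0.0202) or array weights (0.32, adjusted p = 0.039). SVZ tumors read 7.11, 7.47 and 7.23 (0.48 ± 0.15, adjusted p = 0.0139), a call lost without SVZ tumor 2 (0.38, adjusted p = 0.115). The GFAP cortex call was lost when each array was centred on its median (adjusted p = 0.0904), after quantile normalization (adjusted p = 0.0919), and without GFAP cortex tumor 3 or 4 or any 1 normal cortex array (0.35 to 0.47, adjusted p = 0.0548 to 0.148).

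Pdcd1 and Ctla4 encode PD-1 and CTLA-4, the receptors of PD-L1 and PD-L2 and of CD80 and CD86. In the fit of all arrays Pdcd1 passed in SVZ tumors alone, at 7.47, 7.15 and 6.84 against 6.49 to 6.88 over the 8 normal arrays, a log2 difference of 0.45 ± 0.13 (limma, adjusted p = 0.00773). Tumor 3 lay within the normal range, and without SVZ tumor 1 the difference was 0.29 (adjusted p = 0.135). In the other 4 comparisons the Pdcd1 differences were 0.14 to 0.26 (adjusted p = 0.153 to 0.356). With array weights Pdcd1 passed also in GFAP cortex, SYN1 cortex and NES tumors (0.26 to 0.28, adjusted p = 0.0224 to 0.0448).

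Ctla4 passed in none in the same fit. Its differences were 0.13 in GFAP cortex, -0.08 in GFAP hippocampus, 0.03 in SYN1 cortex, 0.09 in NES hippocampus and 0.27 in SVZ tumors (limma, adjusted p = 0.154 to 0.92). Normal arrays read 5.83 to 6.43 and tumor arrays 5.50 to 6.43, so no tumor array was above all normal arrays. GFAP cortex tumors 2 and 3, SYN1 cortex tumors 1 and 3 and GFAP hippocampus tumor 2 all read 6.10159. Normal hippocampus array 1 read the same value, and the cause of these ties was not tested. The 95% interval of the SVZ difference reached 0.57, and it passed with array weights (0.27, adjusted p = 0.0315). Without the 4 arrays the GFAP hippocampus value was -0.03 and the GFAP cortex value 0.08.

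Markers of T and NK cells are given beside these receptors, which those cells carry. Of 13 measured markers none passed in GFAP cortex, GFAP hippocampus or SYN1 cortex tumors, Cd4 (0.70) passed in NES tumors, and 6 were higher in SVZ tumors: Cd3e (0.47), Cd3g (0.85), Cd8b1 (0.42), Ncr1 (0.49), Nkg7 (1.46) and Prf1 (0.38). The list's mean log2 difference from normal arrays was 0.20, 0.34 and 0.68 in the 3 SVZ tumors and at most 0.29 in the other 19 tumor arrays. The defining markers Cd3d and Cd8a did not pass in SVZ tumors (0.10 and 0.12). The part of T cell number in the Pdcd1 and Tnfsf9 differences of SVZ tumors was not tested.

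Of the 32 other checkpoint and costimulation genes listed, 16 were higher in at least 1 comparison with normal brain, 5 were lower in at least 1 and 11 passed in none. By comparison, 9 rose and 3 fell in GFAP cortex tumors, 8 and 4 in GFAP hippocampus, 13 and 2 in SYN1 cortex, 4 and 0 in NES hippocampus and 11 and 4 in SVZ tumors. Over all genes the shares that were higher are given above, and 18.8%, 25.2%, 20.5%, 2.86% and 21.4% were lower in that order. The 4 that rose in all 5 were Lgals9, Lgals3, Vsir and Nectin2. Lgals9, a galectin that binds TIM-3, rose by 1.17 to 2.13, and Lgals3, a galectin described as a ligand of LAG-3, by 2.39 to 3.89. Vsir, which encodes the myeloid checkpoint VISTA, rose by 0.78 to 1.15, and Nectin2, a ligand of TIGIT and DNAM-1, by 0.60 to 1.08. The Nectin2 call in NES tumors (0.63, adjusted p = 0.0438) held in 26 of 40 alternatives.

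**Figure D3:**
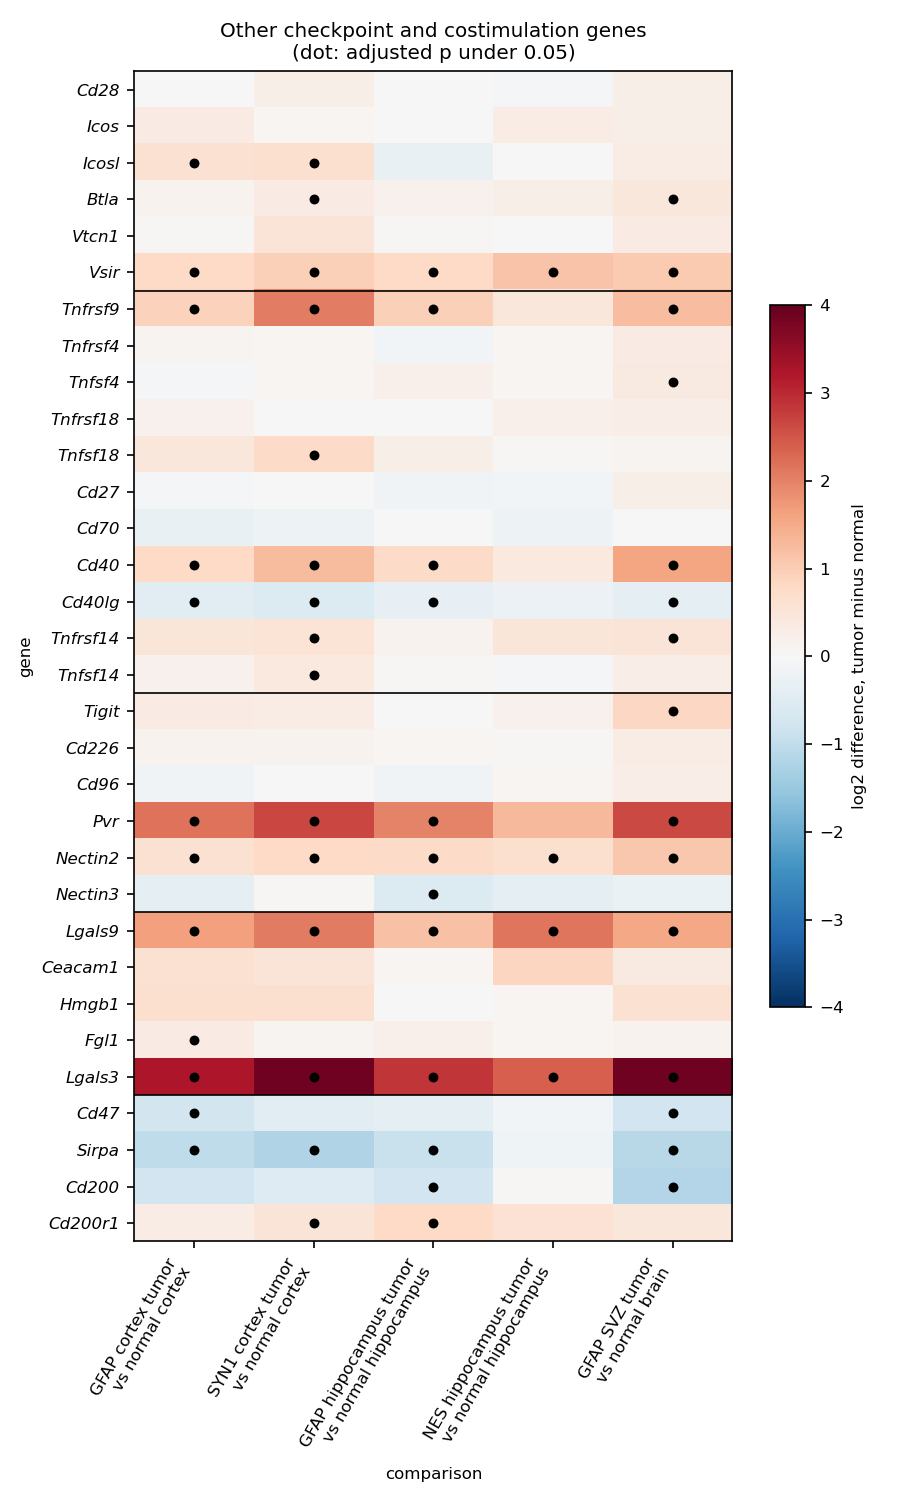
Log2 difference from normal brain (colour, red higher and blue lower in tumors) of 32 other checkpoint and costimulation genes (rows) in 5 comparisons (columns); dots mark adjusted p under 0.05 and lines separate the families. Lgals3, Lgals9, Vsir and Nectin2 carry a dot in every column.

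Among partners of the members, Tnfrsf9, the 4-1BB receptor that Tnfsf9 engages, rose in 4 comparisons, by 2.06 ± 0.32 in SYN1 cortex tumors (limma, adjusted p = 1.29e-05), 1.25 in SVZ, 0.96 in GFAP hippocampus and 0.93 in GFAP cortex tumors, and was 0.44 in NES tumors, which did not pass. Cd28, the receptor of CD80 and CD86 on T cells, passed in none (-0.05 to 0.24). Cd40, the costimulatory receptor of antigen-presenting cells, rose in the same 4 comparisons (0.76 to 1.58), whereas its T cell ligand Cd40lg fell in them by 0.34 to 0.53. Pvr, a ligand of TIGIT, rose in the same 4 (1.98 to 2.67), and Tigit itself rose in SVZ tumors alone (0.83 ± 0.14, adjusted p = 4.52e-05). Sirpa, the receptor of CD47 on macrophages and also neurons, fell by 0.89 to 1.21 in those 4 comparisons. In the same comparisons 6 of 8 neuron markers fell, and their part in the Sirpa difference was not tested.

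Tumor groups were then set against each other. No member passed between SYN1 and GFAP cortex tumors, where 0.176% of all genes did, between NES and GFAP hippocampus tumors (8.21%), between GFAP tumors of hippocampus and cortex (2.68%) or between GFAP tumors of SVZ and cortex (0.00502%). Without overlap were 2 members between SYN1 and GFAP cortex tumors (6.56% of all genes were higher in this way) and 3 between SVZ and cortex (6.74%). At an unadjusted p under 0.05 in limma the counts of members were 2, 1, 0 and 1. Between normal hippocampus and normal cortex none passed either (1.29% of all genes), with 0 at the unadjusted level. The difference between the GFAP tumor change in hippocampus and that in cortex passed for none (0.838% of all genes, 0 at the unadjusted level), with estimates from -0.55 to 0.25.

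Tnfsf9 was the 1 member that passed between tumor groups: SVZ tumors exceeded GFAP hippocampus tumors by 1.41 ± 0.28 (limma, adjusted p = 0.0258, 2.65-fold), where 0.316% of all genes passed, and the arrays did not overlap (7.55 to 9.14 against 6.40 to 7.23). It was 1 of 3 members without overlap there, beside 2.72% of all genes. The call was lost without SVZ tumor 1 (0.92, adjusted p = 0.238), SVZ tumor 2 (1.58, adjusted p = 0.0678) or GFAP hippocampus tumor 7 (1.38, adjusted p = 0.0516), without the 4 arrays that stand apart (1.18, adjusted p = 0.0801), with tumors 1 to 4 only (1.18, adjusted p = 0.129), with only the compared arrays (adjusted p = 0.659) and with the replicate block (1.22, adjusted p = 0.125). SVZ tumors also exceeded GFAP cortex tumors, by 1.08 ± 0.31 without overlap, which did not pass (adjusted p = 0.287) but did without the 4 arrays (1.15, adjusted p = 0.0328) and with array weights (0.87, adjusted p = 0.0122).

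Pdcd1lg2 was 0.84 ± 0.24 higher in SYN1 than in GFAP cortex tumors, 6.66 to 7.31 against 5.87 to 6.41 with no overlap, and did not pass (limma, adjusted p = 0.128). It passed without the 4 arrays that stand apart (0.85, adjusted p = 0.0241) and with GFAP hippocampus tumors 1 to 4 only (adjusted p = 0.0336). It passed too with the replicate number as a block (adjusted p = 0.0359), a fit to which GFAP hippocampus tumors 5 to 7, which share no number, add nothing, and with array weights (0.77, adjusted p = 0.0136). Havcr2 was 1.07 ± 0.35 higher in SYN1 tumors (adjusted p = 0.181), with overlap, and 0.75 without the 4 arrays. Cd274 was 0.72 ± 0.33 higher in NES than in GFAP hippocampus tumors (adjusted p = 0.16), and 0.30 without the 4 arrays. For Cd274 the 95% interval between SYN1 and GFAP cortex tumors ran from -0.32 to 1.23.

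**Figure D4:**
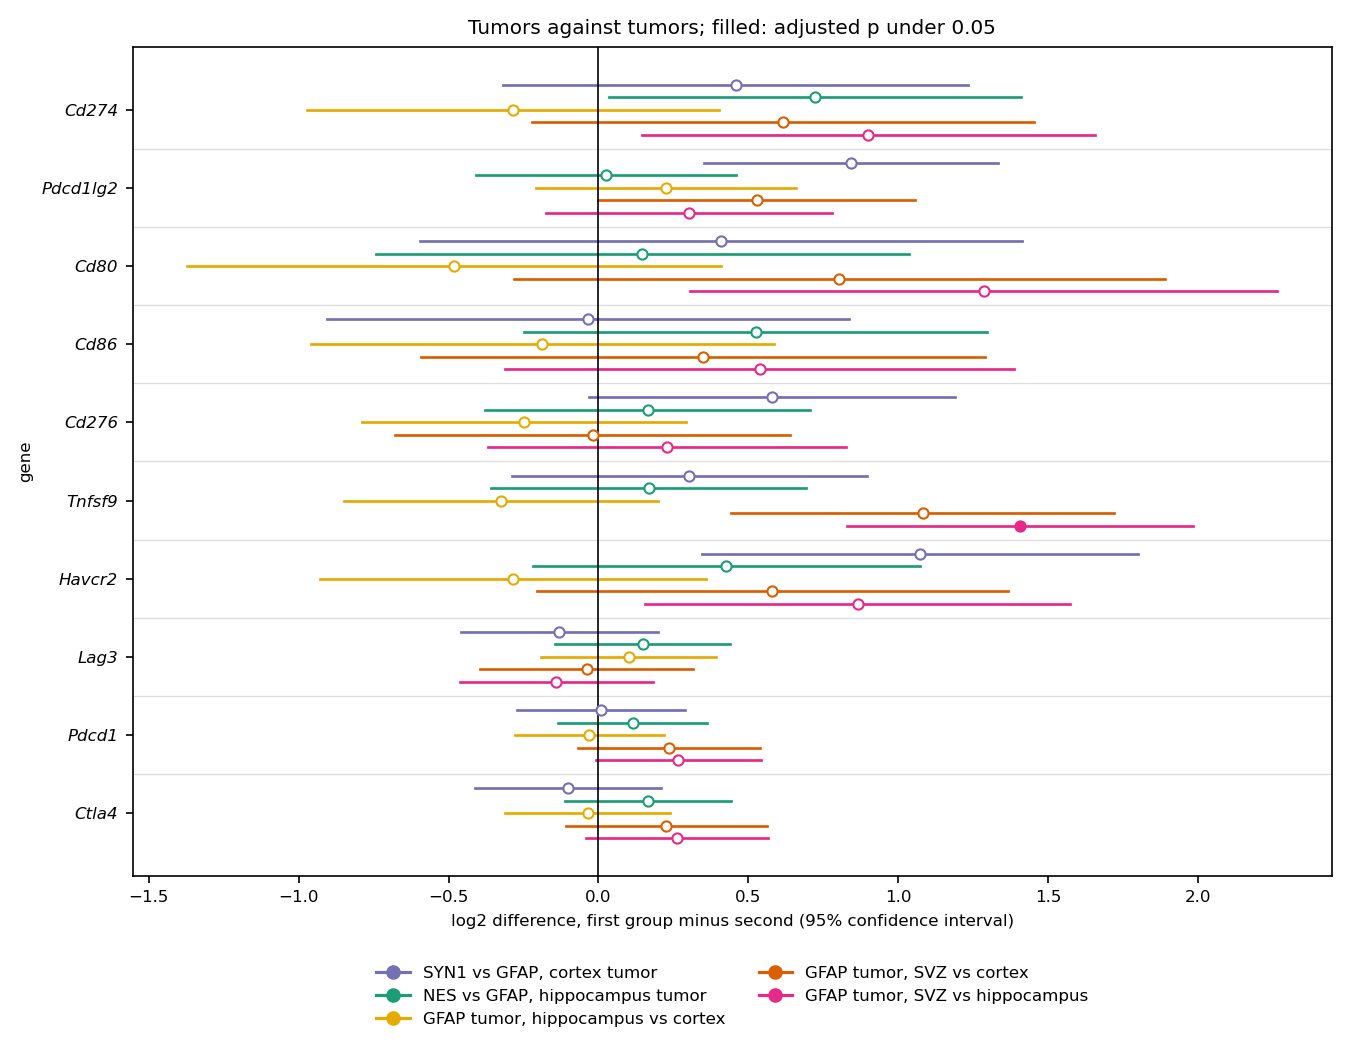
Log2 difference (horizontal axis) of each gene (vertical axis) between pairs of tumor groups, with the 95% confidence interval from limma. Filled points have an adjusted p under 0.05. The 1 filled point is Tnfsf9, SVZ against hippocampus, at 1.41.

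Over the 22 tumor arrays the members varied together in part. Of 45 pairs, 13 had a correlation with adjusted p under 0.05 (permutation test, 100000 resamples, 2-sided, adjusted over the 45), all positive, and 12 of them also by Spearman's rho. The highest were Cd274 with Cd80 (r = 0.78, rho = 0.75), Pdcd1lg2 with Cd276 (r = 0.76, rho = 0.75) and Cd274 with Cd86 (r = 0.75, rho = 0.82), each with an adjusted permutation p of 0.0012. Without the 2 arrays farthest from the median of the first gene these were 0.71, 0.74 and 0.67, without the 4 arrays that stand apart 0.74, 0.73 and 0.64, and for deviations from the group means 0.78, 0.76 and 0.76. Cd274 with Pdcd1lg2 had r = 0.66 (rho = 0.60, adjusted permutation p = 0.0072), and 0.53 without the 4 arrays. Over the 13 pairs r without the 4 arrays ran from 0.36 (Cd274 with Cd276) to 0.74. No pair with Lag3, Ctla4 or Pdcd1 was among the 13.

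The members were also set against 6 gene lists (interferon gamma pathway, monocyte and macrophage, microglia, dendritic cell, T and NK cell, and neuron), 60 relations in all. Against normal brain, none of the 7 microglia markers passed in GFAP cortex, GFAP hippocampus or NES tumors, Sall1 was higher and Siglech lower in SYN1 tumors, and Siglech was lower in SVZ tumors. Of the 8 dendritic cell markers 1, 1, 1, 3 and 3 were higher in GFAP cortex, GFAP hippocampus, SYN1, NES and SVZ tumors and 2, 2, 2, 0 and 1 lower. Itgax, which macrophages carry too, was higher in all 5, Flt3 lower in all but NES tumors, and Zbtb46 lower in GFAP cortex, GFAP hippocampus and SYN1 tumors. Cd274 correlated with the list of 13 interferon gamma pathway genes (r = 0.91, rho = 0.91, adjusted permutation p = 0.0002 over the 60; 0.87 without the 2 farthest arrays, 0.84 without the 4 that stand apart, 0.88 within groups). Cd86 correlated with both that list (r = 0.87, rho = 0.91) and the monocyte and macrophage list (r = 0.81, rho = 0.86), each with the same adjusted permutation p, which rests on the smallest p that the permutations can give. Cd86 passed with the microglia list too (r = 0.55, rho = 0.53, adjusted permutation p = 0.0264 for r and 0.0475 for rho). With the macrophage list Cd274 had r = 0.61 (rho = 0.66, adjusted permutation p = 0.0184). No list holds a member. Havcr2 had r = 0.49 with the interferon list (rho = 0.61, adjusted permutation p = 0.0624 for r and 0.0148 for rho), and 0.12 without the 4 arrays. Tnfsf9 correlated with the T and NK cell list (r = 0.76, rho = 0.68, adjusted permutation p = 0.0029), and 0.52 without the 2 farthest arrays. Pdcd1 (r = 0.60), Ctla4 (0.59) and Cd80 (0.56) passed with that list too (adjusted permutation p = 0.0213, 0.0238 and 0.0238). By rho Pdcd1 did not (adjusted permutation p = 0.122), and by r no other member did. Tnfsf9 also passed by r with the interferon (0.59), dendritic cell (0.58) and macrophage lists (0.57, adjusted permutation p = 0.0189 to 0.0213). Other relations that passed are not printed here.

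**Figure D5:**
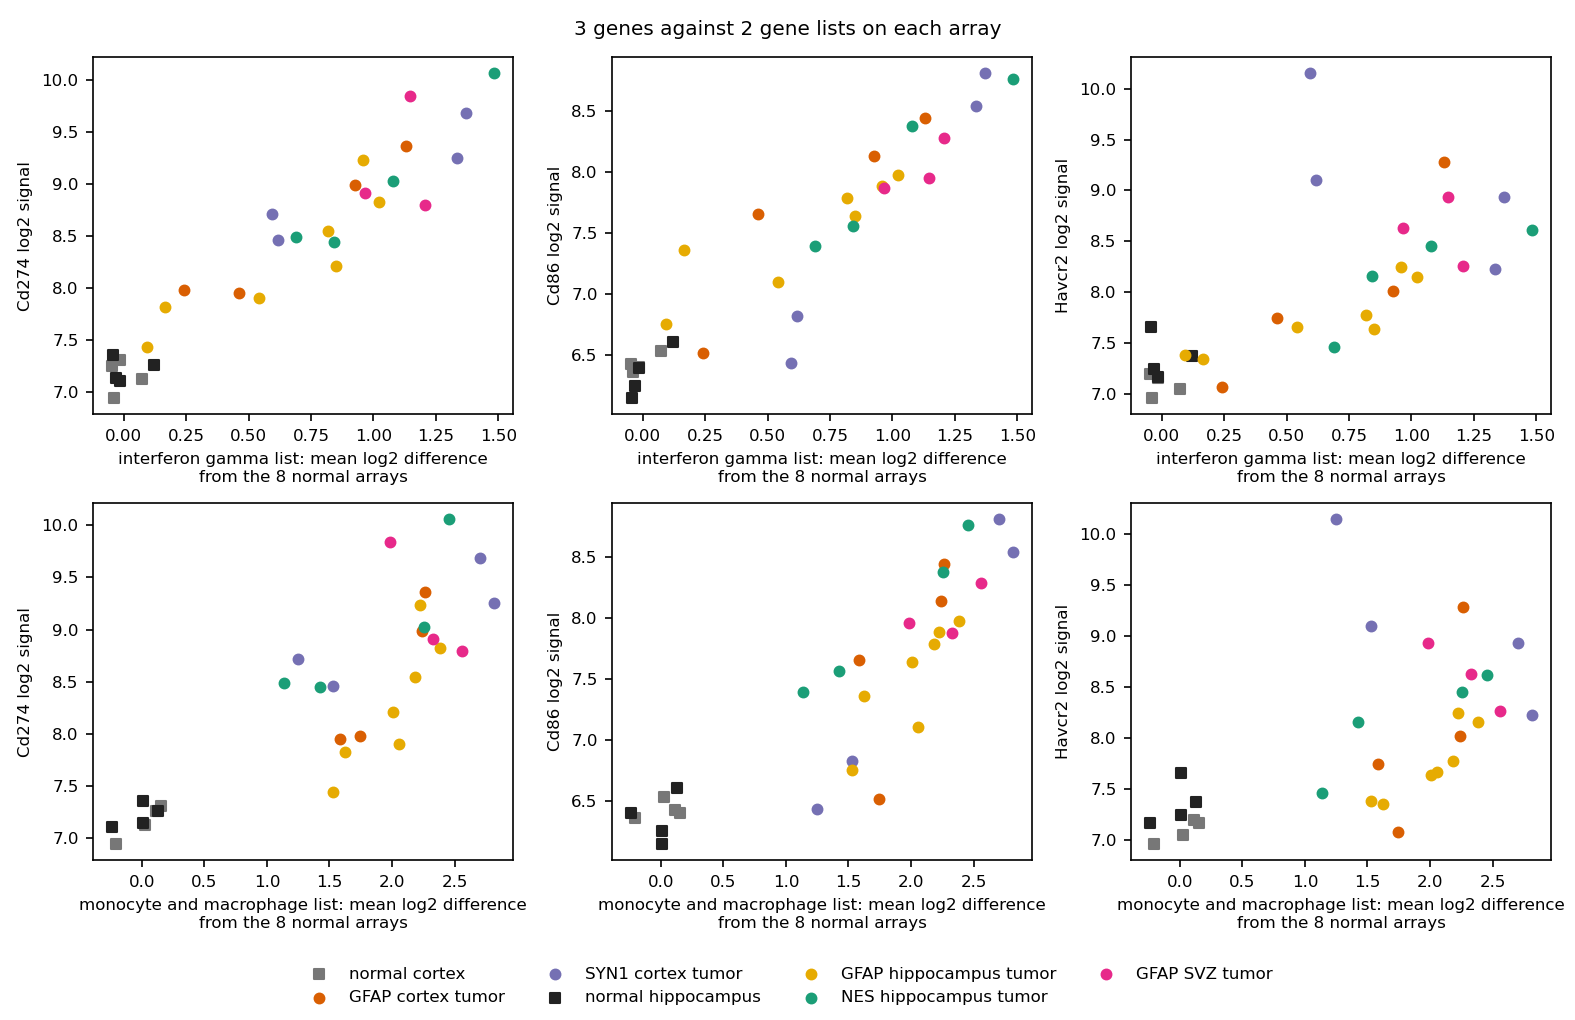
Log2 signal of Cd274, Cd86 and Havcr2 (vertical axes) against the mean log2 difference of 2 gene lists from the 8 normal arrays (horizontal axes), 1 point per array, squares for normal brain. Over the 22 tumor arrays r with the interferon gamma list was 0.91 for Cd274, 0.87 for Cd86 and 0.49 for Havcr2.

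Interferon gamma pathway genes rose beside Cd274. Of the 13 measured, 5 were higher in GFAP cortex and in GFAP hippocampus tumors and 7 in each of the other 3 groups, and none was lower. Irf1, a transcription factor that interferon gamma induces, rose by 1.18 to 1.84 and the chemokine Cxcl10 by 2.33 to 3.95. Ifng itself, which encodes the cytokine, passed in none (-0.10 to 0.28). Cxcl9 rose in SVZ tumors alone (3.24).

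The genes whose pattern over the 22 tumor arrays was most like a member's were named by Pearson's r over all 19938 genes, without a test. For Cd274 they were Zbp1 (r = 0.93), Ddx58 (0.93) and H2-M3 (0.92), and for Cd86 Unc93b1 (0.96), Il10ra (0.94) and Lair1 (0.90). For Cd80 they were Itgal (0.91), Runx3 (0.91) and 6330407A03Rik (0.88), and for Cd276 Mov10 (0.94), Sh3pxd2a (0.93) and Rin2 (0.92). Pdcd1lg2 was most like Orai1 (0.90), 4921524J17Rik (0.89) and Slc25a21 (0.89), Havcr2 like Gfpt2 (0.84), Sh2b2 (0.84) and Oasl1 (0.83), and Tnfsf9 like Tead3 (0.85), Gpr18 (0.84) and Tigit (0.83). For Lag3, Pdcd1 and Ctla4 the closest genes were Slc39a4 (0.71), Septin12 (0.75) and Clec2j (0.77), followed by Rasal3 and Gpr84, Cd2 and Dnaaf3, and Vmn2r93 and Olfr1193.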

How the data were processed

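Total RNA was extracted with Trizol, labelled with the Ambion WT expression kit and hybridised to 30 Affymetrix Mouse Gene 1.0 ST arrays, per the labels. The values the authors deposited are log2 signal per probe set; for their making, Affymetrix Power Tools, MAS5 and RMA are listed, without versions, in the submitters' processing notes, and how arrays were normalized to each other is not given in the sources used here. Array medians ran from 7.03 to 7.30. Of 35556 probe sets, 21789 named 1 gene, 1621 several and 12146 none in the platform annotation; 21698 matched a RefSeq symbol (GRCm38.p6). The probe set with the highest mean over all arrays was kept for each of 19938 genes, with no filter on low values.

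Means of the 7 groups were estimated over the 30 arrays together in limma 3.58.1 (R 4.3.3), with 12 contrasts and Benjamini-Hochberg adjustment over all genes in each. Errors are standard errors of that fit unless stated, and the number of arrays limits the precision. The fit was tested on simulated data for GFAP cortex tumors against normal cortex. Of 200 genes changed among 19938, it recovered 70.5% at a log2 change of 1 and 96% at 2. It also called 4 and 14 genes that had not been changed. In the real arrays of these groups the standard deviation was 0.38 in tumors and 0.04 in normal cortex for Cd276. It was 0.89 and 0.17 for Cd80, but 0.13 and 0.16 for Pdcd1. Recovery with such unequal spread between groups was not tested. Correlations used Python 3.11.15.

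Named genes are the 10 members, genes of the lists that passed in a comparison with normal brain or stand beside a member's result, and the 3 genes most like each member. The members and lists were chosen with earlier results of these data known. Some genes of the lists are not reported here. Deviations of same-numbered arrays from their group means correlated over genes by 0.277 to 0.306 between GFAP hippocampus and GFAP cortex tumors 1 to 4. Between NES and GFAP hippocampus tumors these correlations ran from -0.394 to 0.565, and between SYN1 and GFAP cortex tumors from -0.362 to 0.379. Arrays of different numbers were not compared, so these values cannot show pairing, and the labels state none. Alternatives were centring, quantile normalization, a filter on dim genes, the mean of probe sets, trend and robust variance, only the compared arrays, array weights, a replicate block, the 30 fits without a single array, a fit with only tumors 1 to 4 of the GFAP hippocampus group and one without 4 arrays; applying them to the list genes was added after seeing the data, as was the half-site motif.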

Additional observations from a re-analysis of the deposited data

Results flagged for a closer look

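Within a group of 4 arrays, NES hippocampus tumor 1 was far above the others for Pdcd1lg2, at a log2 signal of 7.14 against 6.09 to 6.22 in the other 3. GFAP cortex tumor 2 was far below the others for Tnfsf9, at 6.08 against 7.29 to 7.52. The gap rule was applied to 60 sets of values (10 genes in the 6 groups of 4 or more arrays) and found these 2, where chance gives about 1 in 20.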

How the results depend on the processing

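Over 607 values of single members under the 10 alternatives that leave out no single array, 556 kept their direction and side of the threshold, 38 passed newly, 11 no longer passed and 2 turned direction. Both reversals were Ctla4, which passed once, in SVZ tumors with array weights: -0.0694 in NES tumors with each array centred on its median, and -0.00696 in SYN1 tumors with array weights. With single arrays left out, 1784 of 1860 were unchanged in that sense and 6 turned, again all Ctla4: in SYN1 tumors -0.0220 without normal cortex 1 and -0.00445 without SYN1 tumor 1 or 3, in NES tumors -0.00982 without normal hippocampus 3, and in GFAP hippocampus tumors 0.0172 without normal hippocampus 2 and 0.0182 without GFAP hippocampus tumor 7. Leaving out single arrays, Ctla4 ranged from -0.0220 to 0.0974, -0.00982 to 0.189 and -0.175 to 0.0182 in these 3 comparisons. The cause was not tested.

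The number of members that passed moved by over 1.5 times as follows. In NES tumors it went from 3 to 8 with array weights, 6 with only the compared arrays, and 5 with the replicate block or without the 4 arrays that stand apart. Between SYN1 and GFAP cortex tumors it went from 0 to 1 (Pdcd1lg2) with array weights, the replicate block, without the 4 arrays, and with GFAP hippocampus tumors 1 to 4 only. Between SVZ and GFAP cortex tumors it went from 0 to 1 (Tnfsf9) with array weights and without the 4 arrays. Between SVZ and GFAP hippocampus tumors it went from 1 to 0 with only the compared arrays, the replicate block, tumors 1 to 4 only and without the 4 arrays. With single arrays left out the counts ran from 1 to 6 in GFAP cortex, 3 to 6 in GFAP hippocampus, 6 to 7 in SYN1, 2 to 4 in NES and 6 to 8 in SVZ tumors, and 0 to 1 between SVZ and GFAP hippocampus tumors. The GFAP cortex count was 1 without tumor 3, and 2 without tumor 4 or normal cortex 2, 3 or 4. The GFAP hippocampus count was 3 without tumor 2, 3 or 4 or any normal hippocampus array.

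Whether equal replicate numbers mark paired samples was not tested. The replicate block changed no member call between GFAP hippocampus and GFAP cortex tumors, 0 either way. GFAP hippocampus tumors 5 to 7 share no number and add nothing to the block fit, so its gains cannot be told apart from leaving them out.

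Over all genes, centring each array moved the median difference of NES tumors from -0.04 to -0.20 and the share of calls that were higher from 66.5% to 39.5%; quantile normalization moved that share in GFAP cortex tumors from 32.4% to 46.5%. Between NES and GFAP hippocampus tumors that share went from 74.5% to 32.5% with centring and 41.1% with quantile normalization. Calls over all genes went from 1706 to 7723 in NES, 5536 to 10610 in GFAP cortex and 7504 to 11488 in SVZ tumors with array weights. Between tumor groups they ran from 4 to 2655 for SYN1 against GFAP (35 as reported), 0 to 4715 for NES against GFAP (1637), 0 to 2090 for hippocampus against cortex (534), 0 to 5173 for SVZ against cortex (1) and 0 to 528 for SVZ against hippocampus (63). Between normal hippocampus and normal cortex they were 257 as reported, 2768 with only the compared arrays and 2645 with array weights. Of 169 calls of list genes, 112 held in every alternative and none reversed.

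Log2 signal includes background, which compresses differences of dim genes such as Ctla4; how far was not tested.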
